A study of Bos taurus with 14 samples.

Results

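The miRNA described here are those best known from inflammation and white blood cells: miR-21, miR-142, miR-146a, miR-146b, miR-150, miR-155 and miR-223. Every line of the deposited table whose mature miRNA carries one of these 7 names, with any arm suffix, was taken. This gave 7 of the 350 miRNA/precursors in the table, namely bta-miR-21-5p, bta-miR-142-5p, bta-miR-142-3p, bta-miR-146b, bta-miR-150, bta-miR-155 and bta-miR-223, each with 1 precursor. They cover 6 of the 7 names. No line carries bta-miR-146a, which was therefore not analysed here.

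The small RNA of small extracellular vesicles (sEVs) from milk was sequenced for 14 lactating Holstein cows. The 7 cows of the control group received the total mixed ration alone, and the 7 cows of the inulin group received 300 g/d of inulin, a plant fructan, in addition for 5 wk after 1 wk of adaptation. All cows, the control group included, had subclinical mastitis, an udder inflammation without visible signs, so neither group shows the level of a healthy udder. The milk of each cow was pooled over the milkings of the last day and gave 1 library. Library totals spanned 4165 to 415020 miRNA counts, with a median of 72277 for control and 112974 for inulin cows, and control cow 5 alone held 24.9% of all counts.

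The miRNA bind messenger RNA through the bases near their 5ʹ end, the seed, and lower the output of the genes they bind. White blood cells carry several of them at high levels: miR-223 is typical of neutrophils and monocytes, miR-142 of all blood cell lineages and miR-150 of mature lymphocytes. Activated immune cells raise miR-155, which favours inflammatory signalling, and miR-146a and miR-146b, which share a seed and dampen signalling below Toll-like receptors. The miRNA miR-21 is made in many cell types, epithelium included, and rises in inflamed tissue. In mastitis the somatic cells of milk are largely neutrophils, while the epithelium of the gland also releases sEVs into milk.

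All 7 precursor names were found in RefSeq on assembly ARS-UCD2.0. There mir-142 lies within the span of TSPOAP1 and next to MPO, the gene of the neutrophil enzyme myeloperoxidase, and mir-223 lies within the span of VSIG4. Both also overlap a long non-coding RNA gene. For mir-21 the neighbouring protein-coding genes are VMP1 and TUBD1. No positions are given, since the labels name another assembly, ARS-UCD1.2.

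The leukocyte and inflammation miRNA were a small part of the milk sEV miRNA in both groups, and miR-21-5p, miR-155 and miR-223 supplied nearly all of it. Together the 7 miRNA had 1355 counts over the 14 cows, of which these 3 held 1275, or 94.1%. Per cow, they took a mean of 0.0730% ± 0.0554 of the counts with the control diet and 0.0448% ± 0.0219 with inulin (SD, n = 7 each). The control cows ran from 0.0130% to 0.184% with a median of 0.0547%, and the inulin cows from 0.0226% to 0.0779% with a median of 0.0405%, so the groups overlapped. Control cow 5 had the highest share and alone supplied 56.2% of all counts of the 7 miRNA. Without this cow the mean share of the control group was 0.0545%.

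**Figure D1:**
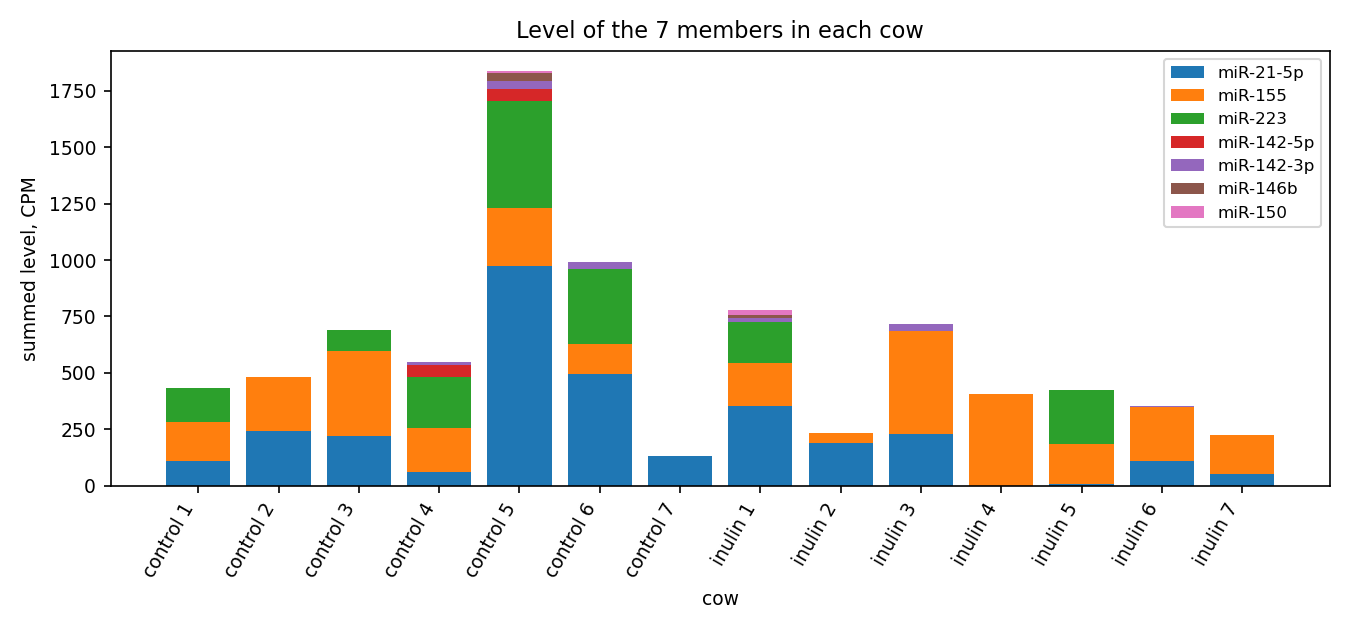
Level of the 7 miRNA in each cow, in CPM (counts per 1000000 counts of the cow), stacked by miRNA, with the control cows on the left and the inulin cows on the right. Control cow 5 reaches 1836 CPM, the other 13 cows stay between 130 and 993 CPM, and the 3 lowest bands of each column hold nearly all of the level.

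Levels are given as CPM, the counts of a miRNA per 1000000 counts of the cow. A precursor copy adds its shared reads to that total again, which lowers every level alike within a cow. By mean level over all 14 cows, miR-21-5p came first with 227 ± 255 (SD, n = 14) and rank 43 among the 268 mature miRNA of the table, followed by miR-155 with 218 ± 127 and rank 46. These neighbours differed by far less than their spread. Next was miR-223 with 121 ± 152 (SD, n = 14) and rank 56, again within the spread of miR-155. A wide step led to miR-142-3p with 9.19 ± 13.7, miR-142-5p with 7.82 ± 19.9, miR-146b with 3.71 ± 10.2 and miR-150 with 2.02 ± 5.81 (SD, n = 14 each). Each of these differed from the next in order by less than either SD. A mature miRNA is read whole, so no correction for length was made, and the part that adapter ligation has in this order was not tested.

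The number of the 7 miRNA seen in a cow differed between libraries of like depth, and so did the share of all 350 pairs seen. That share was 57.7% in control cow 4, 50.9% in inulin cow 1 and 36.9% in inulin cow 2. All 7 miRNA were present only in control cow 5, the deepest library with 415020 counts, which also had the highest share of all pairs, 82.9%. Inulin cow 1, with 189928 counts, had 6 of the 7 and lacked miR-142-5p, and control cow 4, with 177212 counts, had 5. Other deep libraries showed fewer, with 3 of the 7 in inulin cow 6 at 265214 counts, 2 in inulin cow 2 at 176076 and 3 in inulin cow 5 at 112974. At the other end, control cow 2 had 2 at 4165 counts, inulin cow 4 had 1 at 14822 and control cow 7 had 1 at 23155. Control cow 6 had 4 at only 30225 counts.

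**Figure D2:**
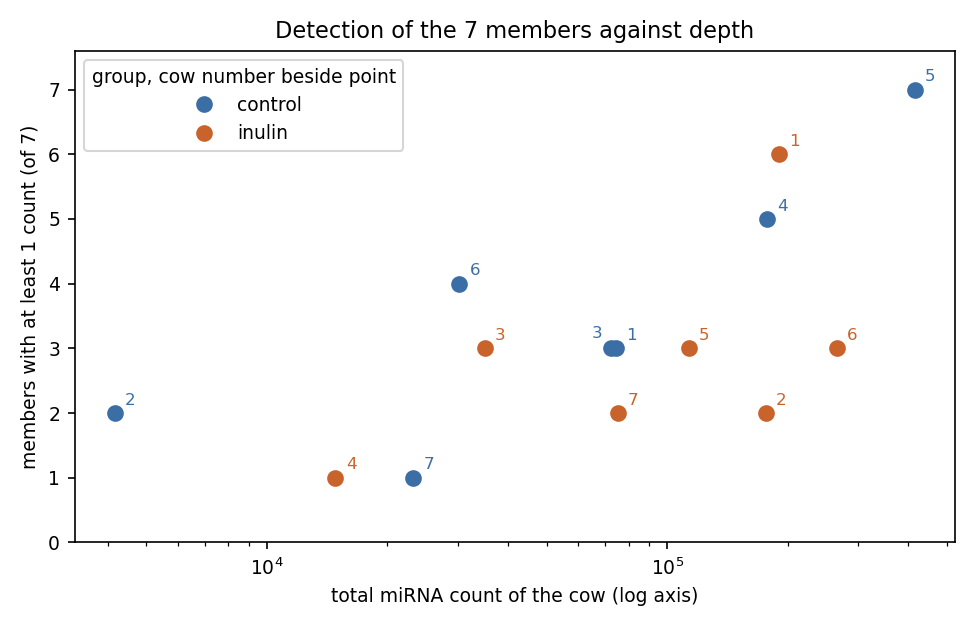
Number of the 7 miRNA with at least 1 count in each cow against its total miRNA count on a log axis, with control and inulin cows in different colours and the number of the cow beside each point. Control cow 5, the deepest, has 7, while inulin cows 2 and 6, also deep, have 2 and 3.

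A mean of 3.57 of the 7 was detected per control cow and 2.86 per inulin cow. The share of all 350 pairs detected ran from 17.7% to 82.9% per control cow and from 20.9% to 52.0% per inulin cow. Counted over a group, the control cows held all 7 and the inulin cows 6, since miR-142-5p had 0 counts there. Without control cow 5 the control group retained 5, and without inulin cow 1 the inulin group retained 4. For all 350 pairs only the share per cow is given here, not the number seen over a group. Whether the absence of miR-142-5p from the inulin group exceeds that of other pairs was therefore not tested. When every library was reduced by calculation to the lowest total of 4165 counts, the expected number was 1.78 per control cow and 1.18 per inulin cow, with 3.01 in control cow 5 and 2.25 in control cow 6 against 0.720 in inulin cow 2 and 0.448 in control cow 7. No matching value is given for all 350 pairs, so whether this difference is particular to the 7 miRNA was not tested. The limits that follow are 3 counts of the total of a cow, and like the 95% Wilson intervals they cover counting error only.

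Among the white blood cell miRNA, miR-223, the marker of neutrophils and monocytes, was either clearly present or at 0. It was detected in 7 cows, 5 of the control and 2 of the inulin group. In the control group its level ranged from 0 to 475 CPM with a median of 148, and in the inulin group from 0 to 239 CPM with a median of 0. The inulin cows with counts were cow 1 at 184 CPM (95% Wilson interval 133 to 256) and cow 5 at 239 CPM (interval 164 to 348), both within the range of the control group.

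In 4 of the 7 cows at 0, all of the inulin group, the limit of 3 counts lay below the lowest level seen elsewhere, 96.8 CPM in control cow 3. In inulin cow 6 a count of 0 of 265214 allows up to 11.3 CPM, and in inulin cow 2 a count of 0 of 176076 allows up to 17.0 CPM. The limit was 39.9 CPM in inulin cow 7 and 85.8 CPM in inulin cow 3. By the upper Wilson bound, which is 110 CPM in inulin cow 3, 3 cows rather than 4 lay below 96.8 CPM. In control cow 2, control cow 7 and inulin cow 4 the limits of 720, 130 and 202 CPM lay above 96.8 CPM, so that miR-223 was not detectable there at such a level. The cows with miR-223 had totals from 30225 to 415020 and the cows without it from 4165 to 265214, so these ranges overlapped. The lowest totals, those of control cow 2, inulin cow 4 and control cow 7, all belonged to cows at 0. The part of depth in the counts of 0 was not tested.

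Between the groups no test of the difference in miR-223 gave an adjusted p under 0.05. Control cows averaged 182 ± 175 CPM and inulin cows 60.5 ± 104 CPM (SD, n = 7 each). On the counts, edgeR's quasi-likelihood test gave a log2 fold change of -1.49 with a standard error of 1.22 (adjusted p = 0.914). On the log2 scale of CPM with a prior count of 2 the inulin group was lower by -1.66 (exact permutation test, two-sided, p = 0.152, adjusted p = 1.0 over the 210 pairs tested). The smallest p that 7 cows against 7 allow is 0.000583. The tools differed: limma-voom gave -3.31 (adjusted p = 0.215, unadjusted p = 0.00512) and DESeq2 -1.56 (adjusted p = 0.99). Without inulin cow 5 the edgeR value was -2.48, and without inulin cow 2 it was -0.999.

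The hairpin of mir-142, active in all blood cell lineages, gave reads from both arms. Over all cows the 5p arm had 32 counts and the 3p arm 23, which is 58.2% 5p (95% Wilson interval 45.0 to 70.3). Both arms were seen only in control cow 4, with 10 counts of 5p and 2 of 3p, and in control cow 5, with 22 and 15. The share of the 5p arm was 83.3% (interval 55.2 to 95.3) in control cow 4 and 59.5% (interval 43.5 to 73.7) in control cow 5, and these intervals overlap. In the inulin group the hairpin had 5 counts, all of the 3p arm, from cows 1, 3 and 6. With 0 of 5 counts the interval for the 5p arm reaches 43.4%.

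In control cows 4 and 5 miR-142-5p stood at 56.4 and 53.0 CPM, and in the other 12 cows it had 0 counts. In 7 of those 12 the limit lay below 53.0 CPM, namely control cows 1 and 3 and inulin cows 1, 2, 5, 6 and 7, where the lowest limit was 11.3 CPM in inulin cow 6. By the upper Wilson bound it was 6, without control cow 3. Zero counts were thus found at sufficient depth in both groups. The pooled level of 40.2 CPM in the control group was 11.6-fold a floor of 3 counts over the inulin group. This ratio is no lower bound, since the control level carries its own error, and it rests on pooled counts, of which control cow 5 held 68.8%. It was 7.598-fold without that cow and 4.53-fold with the mean of the control cows in place of the pooled level. The exact permutation test of the log2 level gave a difference of -0.60 (p = 0.462, adjusted p = 1.0). With counts in control cows 4 and 5 alone and an equal value in the other 12 cows, no lower p was possible. This p therefore cannot decide whether the level of miR-142-5p differed. The other arm, miR-142-3p, ranged from 0 to 36.1 CPM in the control group and from 0 to 28.6 CPM in the inulin group, with medians of 0 in both and 3 cows with counts in each. Its difference of -0.18 in log2 level did not exceed the variation among cows (exact permutation test, p = 0.657, adjusted p = 1.0).

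The cows with mir-142 and those with miR-223 were only partly the same. Of 6 cows with counts of either mir-142 arm, 4 also had miR-223, whereas inulin cows 3 and 6 had 1 count of miR-142-3p each and none of miR-223. The lymphocyte miRNA miR-150 had 7 counts in all, 3 in control cow 5 (7.23 CPM) and 4 in inulin cow 1 (21.1 CPM). With fewer than 10 counts it was not tested, and in 12 cows it was at 0.

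Of the miRNA raised in activated cells, miR-155 was the most even from cow to cow. It was detected in 13 of the 14 cows, and its coefficient of variation over all cows was 58.3%, against 112% for miR-21-5p and 126% for miR-223. In the control group it ranged from 0 to 374 CPM with a median of 192, and in the inulin group from 45.4 to 457 CPM with a median of 190. Both ranges overlapped almost fully and the medians nearly coincided. The only cow at 0 was control cow 7, where 0 of 23155 counts allows up to 130 CPM, a limit below the level of 12 of the other 13 cows, though only just below the 132 CPM of control cow 6.

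Mean miR-155 was 195 ± 115 CPM for control and 241 ± 143 CPM for inulin cows (SD, n = 7 each). Its fold change in edgeR was 0.17 on the log2 scale with a standard error of 0.782 (adjusted p = 0.985), and the difference in log2 level was 0.45 (exact permutation test, p = 0.571, adjusted p = 1.0). The direction turned with limma-voom, to -0.07, and in both tests when control cow 7 was left out, to -0.06 in edgeR and -0.09 in log2 level. Without inulin cow 3 the edgeR value was -0.0016. The lowest level above 0 belonged to inulin cow 2, at 45.4 CPM (95% Wilson interval 23.0 to 89.7), and the highest to inulin cow 3, at 457 CPM (interval 282 to 743).

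The dampening miRNA miR-146b was found in 2 cows. It had 15 counts in control cow 5, or 36.1 CPM, and 3 counts in inulin cow 1, or 15.8 CPM. Of the 12 cows at 0, inulin cow 6 alone was deep enough for a limit below 15.8 CPM. Its edgeR value of -1.20 on the log2 scale, with a standard error of 1.18 (adjusted p = 0.918), thus rests on a single cow of each group. The exact permutation test of the log2 level gave p = 1.0 (difference -0.10). A single cow with counts in each group fixes that p, so it cannot decide whether miR-146b differed. Without inulin cow 1, when the inulin group has 0 counts, edgeR gave an unadjusted p of 0.0255.

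The broadly expressed miR-21-5p varied most in absolute terms. In the control group it ranged from 62.1 to 976 CPM with a median of 221, and in the inulin group from 0 to 353 CPM with a median of 109. Control cow 5 stood highest at 976 CPM (95% Wilson interval 885 to 1076), followed by control cow 6 at 496 CPM (interval 301 to 819). Inulin cow 5 had a single count of miR-21-5p among 112974, or 8.85 CPM (interval 1.56 to 50.1), although its miR-223 was above the control median. In inulin cow 4 the level was 0, with a limit of 202 CPM, close to the control median. The levels above 0 spanned 110-fold for miR-21-5p, but 18.3-fold without inulin cow 5 and its single count, against 10.1-fold for miR-155 and 4.90-fold for miR-223.

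Mean miR-21-5p was 319 ± 323 CPM for control and 134 ± 129 CPM for inulin cows (SD, n = 7 each), and 2 of the 7 inulin cows were above the control median. The groups overlapped and the difference was not significant, with an edgeR value of -1.18 on the log2 scale and a standard error of 0.879 (adjusted p = 0.914). In log2 level the difference was -1.33 (exact permutation test, p = 0.122, adjusted p = 1.0), against an SD of 1.25 in control and 1.69 in inulin cows. Without control cow 5 the edgeR value shrank to -0.52.

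**Figure D3:**
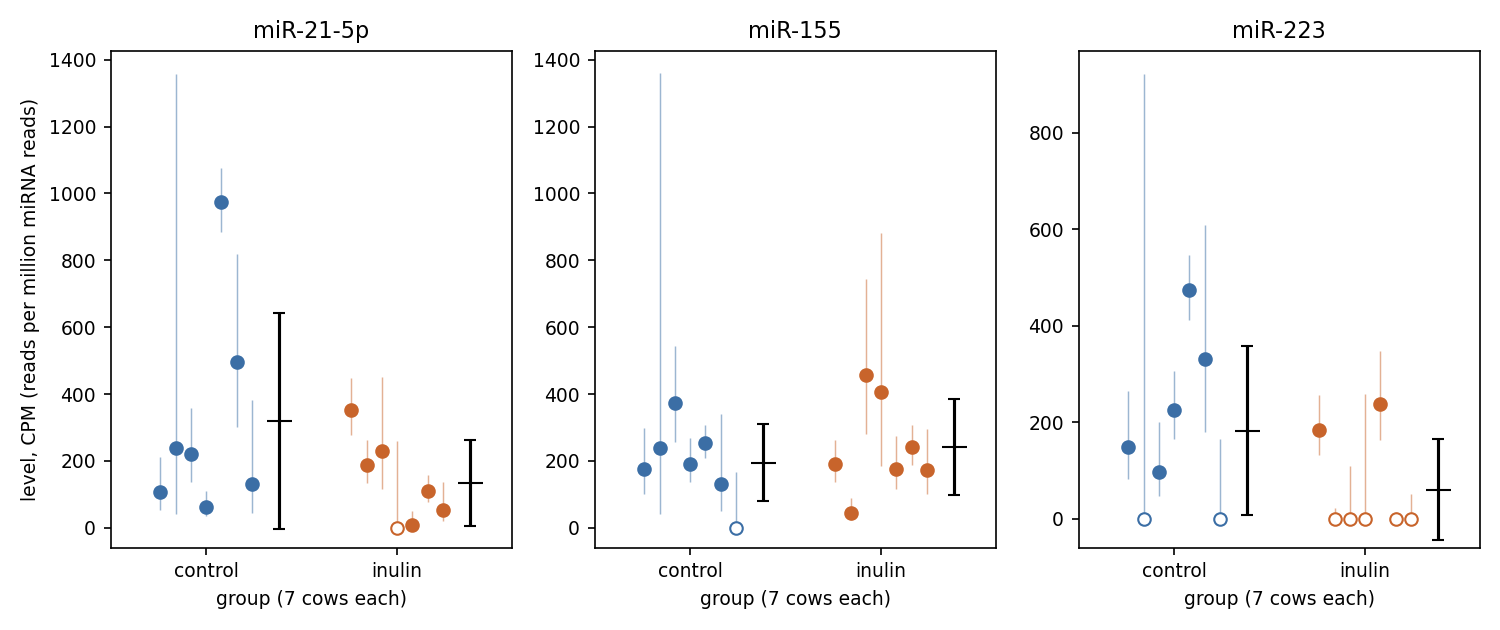
Level of miR-21-5p, miR-155 and miR-223 in CPM, with 1 point per cow in the order of the cow numbers, thin lines for 95% Wilson intervals, open points for cows with 0 counts, and black bars for the mean and SD of 7 cows. The groups overlap in all 3 panels, and miR-223 is at 0 in 5 inulin and 2 control cows.

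Summed over their list, epithelial miRNA stood well above the leukocyte and inflammation miRNA. Of the epithelial list, 5 of 7 names were found, all of the miR-200 family, while miR-203 and miR-205 had no line, and their summed level was 3361 to 13542 CPM in the control group and 2564 to 8788 CPM in the inulin group. Their medians of 4448 and 6178 CPM compare with 547 and 405 CPM for the leukocyte and inflammation miRNA. Most of the epithelial level was miR-200c, at 3121 to 10320 CPM in control and 1957 to 8061 CPM in inulin cows. By itself miR-141, of the same list, averaged 458 ± 738 CPM in control and 440 ± 152 CPM in inulin cows (SD, n = 7 each). The control mean rests on control cow 5 at 2125 CPM. The other control cows had 86.4 to 242 CPM, and the inulin cows 173 to 607 CPM. Control cow 5, with the highest miR-21-5p, also had the highest level of the epithelial miR-200c, 10320 CPM against 1957 to 8061 CPM in the other cows. In control cow 6, the next highest in miR-21-5p, miR-200c was 4069 CPM, close to the 4222 CPM of inulin cow 5 with its single count of miR-21-5p. The miR-200c values were picked after they were seen. The part of epithelial vesicles in the miR-21-5p level was not tested, and fewer vesicles from a cell type cannot be told apart from less miRNA in each vesicle.

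The lists of red blood cell, endothelial and platelet, and liver miRNA had few counts, and carry-over of blood into milk was not tested. Of the 3 red blood cell names, miR-451 and miR-144 had no line and miR-486 had 5 counts in 2 cows. The endothelial and platelet miR-126 had 10 counts in 3 cows and the liver miR-122 had 9 counts in 2 cows. The muscle list had counts in 10 cows and reached 3865 CPM in a control and 1687 CPM in an inulin cow, against medians of 13.8 and 17.7 CPM.

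In the diet comparison 0 to 2 of the 6 tested leukocyte and inflammation miRNA were called, depending on the tool. The rule of the study was an unadjusted P under 0.05 with an absolute log2 fold change above 1. By this rule edgeR called 1 of the 6 with at least 10 counts over all cows. Of all 210 pairs tested it called 19 (9.05%) in either direction and 13 (6.19%) in the lower direction. The 1 called of the 6 was miR-142-5p, lower in the inulin group, with a fitted log2 value of -4.46 that depends on the prior count (standard error 1.4, adjusted p = 0.274). Control cow 5 held 60.2% to 83.3% of the counts of 5 of the 6, and 30.3% of those of miR-155. Without this cow miR-142-3p and miR-146b were under the minimum. By the same rule DESeq2 called 0 of the 6, with 0 at an unadjusted p under 0.05, against 9 of all 210 pairs (4.29%). The limma-voom fit called 2 of the 6, miR-142-5p and miR-223, both lower. Of all 210 pairs it called 14 (6.67%), with 13 (6.19%) in the lower direction. After adjustment over all pairs no pair of any kind was under 0.05 with these 3 tools (0 pairs, smallest adjusted p = 0.274 from edgeR, 0.234 from DESeq2 and 0.185 from limma-voom), against 19, 10 and 15 pairs at an unadjusted p under 0.05.

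The median log2 fold change of the 6 was -1.19, and that of all 210 pairs was -0.40. Values below 0 were found for 5 of the 6 and for 147 of the 210. When the counts were scaled to the total without the let-7 miRNA and miR-1246, which together made up 82.4% ± 4.08 of the counts of control and 85.0% ± 7.90 of those of inulin cows (SD, n = 7 each), both medians moved up, to -0.85 and -0.0033, and miR-142-5p was again the only one called. Without control cow 5 and with the main scaling, the median was -0.854 for the 4 still tested and -0.095 for all 188 pairs.

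**Figure D4:**
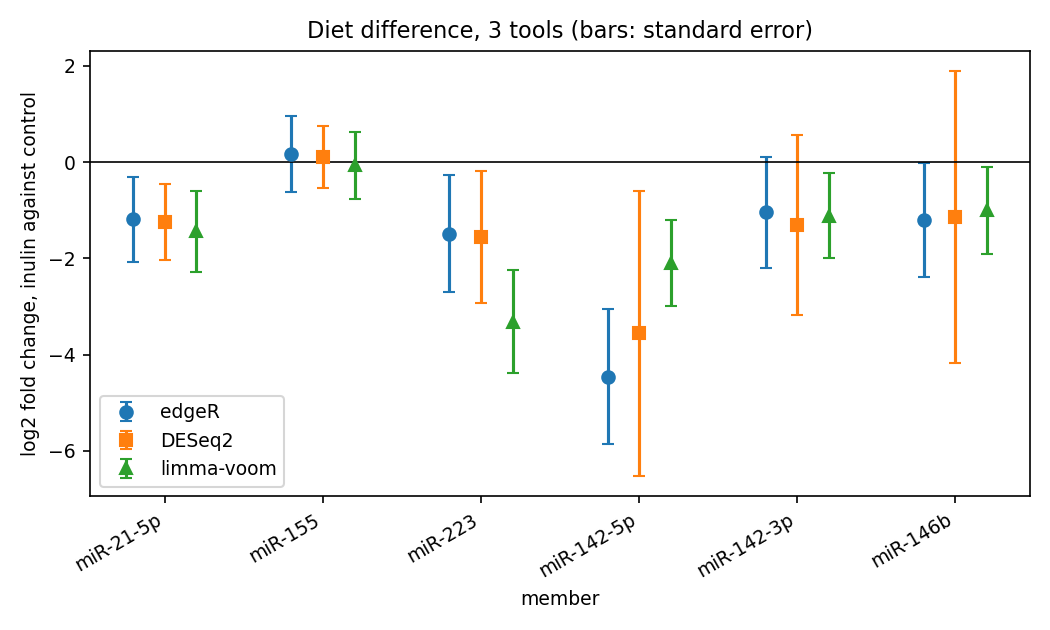
Log2 fold change between the inulin and control groups for the 6 miRNA with at least 10 counts, from edgeR (circles), DESeq2 (squares) and limma-voom (triangles), with bars for the standard error. Values lie below 0 except for miR-155 with edgeR and DESeq2, and the tools are farthest apart for miR-142-5p and miR-223.

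Other miRNA linked to immune cells, from a list with 17 further names such as the miR-29, miR-125 and miR-181 families, gave no call. The table holds 13 of the names in 20 miRNA/precursors, of which 17 could be tested. Precursor copies share reads, so these 17 hold only 11 different mature miRNA. None of the 17 was called (0 by edgeR, DESeq2 and limma-voom alike, with 0 at an unadjusted p under 0.05), and their edgeR log2 fold changes ranged from -1.31 to 0.72 with a median of -0.37. Their summed level was 302 to 2371 CPM in the control group and 543 to 1079 CPM in the inulin group, so it exceeded that of the leukocyte and inflammation group by median, 706 against 547 CPM and 945 against 405 CPM.

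The levels of miR-21-5p and miR-155, the pair with counts in at least 10 cows, showed no relation. Over 14 cows Pearson's r of the log2 levels was -0.0649 (permutation p = 0.818) and Spearman's rho of CPM was 0.0593 (permutation p = 0.845), in the 1 relation computed, for which adjusted and raw p are equal. Without control cow 7 and inulin cow 2, the cows farthest from the median of miR-155, r was -0.0956 (permutation p = 0.768). Taken alone, the 7 control cows gave r = 0.261 (exact permutation test, p = 0.558) and the 7 inulin cows r = -0.255 (exact permutation test, p = 0.599).

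Among the 62 other mature miRNA with counts in at least 10 cows, the pattern over the 14 cows most like that of miR-223 was that of miR-92a, with Spearman's rho of 0.842, followed by miR-93 with 0.810 and miR-2284x with 0.805. For miR-21-5p these were miR-16a (0.600), let-7e (0.534) and miR-196a (0.521), and for miR-155 they were miR-141 (0.547), miR-660 (0.455) and miR-320a (0.415). These values are descriptions over 14 cows that share the total of the cow as divisor, and in miR-223 the 7 cows at 0 are tied. The miR-92a level was 391 ± 537 CPM for control and 159 ± 150 CPM for inulin cows (SD, n = 7 each).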

How the data were processed

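Milk sEV small RNA of 14 cows was sequenced, 7 in each group by their labels, and different animals carry the same number in both groups. The authors deposited read counts per miRNA/precursor from miRDeep2 against miRBase, after adapter and quality filtering and without normalization. The deposited rpm columns, counts per 1000000 counts of the cow, differed from the recomputed CPM by at most 0.005. The deposited sum over cows and the length were not needed, and 0 columns had no cow. Reads shared by precursor copies are counted at each copy. The members and lists were chosen with earlier results of these data known. All 7 members are named, with the 3 most alike miRNA (rho of CPM) for those in at least 7 cows. The main test was edgeR's quasi-likelihood test (version 4.0.16, R 4.3.3, TMM, at least 10 counts over all cows), with DESeq2 1.42.0, the tool of the study, and limma-voom 3.58.1 as alternatives. Standard errors in edgeR are the fold change over the root of F. P-values were adjusted by Benjamini-Hochberg over all pairs. Single levels were compared by exact permutation over 3432 assignments, and the relation by 100000 permutations. The fits were run on simulated data, where recovery of changed pairs was required only at a spread lower than that of these data. How many true differences they would find at the spread of these data is not given. Other alternatives were other scalings, filters, prior counts (0.5 for 2), 1 precursor per miRNA, a block on cow number and omission of each cow. Other steps used SciPy 1.17.1, pandas 2.3.3, NumPy 2.4.6 and, for plots, matplotlib 3.10.9 in Python 3.11.15.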

Additional observations from a re-analysis of the deposited data

Results flagged for a closer look

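For 17 sets of 7 cows, the gap between the most extreme cow and its neighbour was divided by the range (Dixon's test at its 95% limit). Chance passes about 5% of such sets, or 0.85 here, and 5 passed. For 4 of them the ratio is 1.0 by construction, since a single cow of the group had counts: miR-146b in control cow 5 (36.1 CPM) and inulin cow 1 (15.8 CPM), and miR-150 in control cow 5 (7.23 CPM) and inulin cow 1 (21.1 CPM). The fifth was the number of the 7 miRNA detected in inulin cow 1, which was 6 against at most 3 in the other inulin cows. This cow had a total of 189928 and 50.9% of all pairs, while inulin cow 6 with 265214 and 52.0% of all pairs had 3 of the 7. At the lowest total the expected number in inulin cow 1 was 2.08, against 1.62 in inulin cow 3, the next of its group.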

How the results depend on the processing

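The number of pairs called, 19 of 210 with edgeR, moved to 9 with DESeq2, 75 without a filter, 3 with filterByExpr and 7 with the number of the cow as a replicate block, and ranged from 14 to 22 with each cow left out. Among the leukocyte and inflammation miRNA the number called, 1, became 0 with DESeq2, filterByExpr and the block, 2 with limma-voom, and 1 to 2 with each cow left out, where miR-146b joined without inulin cow 1. The filterByExpr filter kept miR-21-5p and miR-155 alone. For miR-142-5p the log2 fold change was -3.56 with DESeq2 (unadjusted p = 0.229 from DESeq2) and -2.83 with the block (unadjusted p = 0.18 from edgeR). Cows with the same number are different animals, and their deviations from the group means correlated from -0.34 to 0.27, above 0.1 in 2 of 7 cases. The miR-155 fold change of 0.17 turned to -0.0688 with limma-voom and ranged from -0.0599 (without control cow 7) to 0.69 with each cow left out, with -0.00157 without inulin cow 3. In log2 level the miR-155 difference ranged from -0.0914 to 0.75 and that of miR-146b from -0.23 to 0.12, the latter positive without control cow 5. The r of miR-21-5p and miR-155 turned to 0.0406 with the total without let-7 and miR-1246. It was 0.261 in control cows. With that total the summed share was 0.423% in the control and 0.339% in the inulin group, and with 1 precursor per miRNA it was 0.117% and 0.0745%, as fewer counts enter the divisor. Pooled over cows it was 0.123% and 0.0436%. The expected number detected per inulin cow at the lowest total was 1.18. Without control cow 5, miR-142-3p and miR-146b had too few counts to be tested. The calls lower with inulin were 68.4% of all calls in the main comparison, 80.0% with the size factors of DESeq2, 92.9% with limma-voom and 47.1% without control cow 5. The calls of these miRNA were the same under the other scalings, without a filter and with 1 precursor per miRNA. Chosen after seeing the data were the Wilson bound for counts of 0, the span of miR-21-5p without inulin cow 5, and the ratio of miR-142-5p to the inulin floor without control cow 5 or by the mean of cows. At these depths the limit of a count of 0 was 7.23 to 720 CPM.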

Other observations

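Within a cow the counts of miR-21-5p and miR-155 do not depend on the total used for scaling, and their ratio differed widely. It was between 0.324 and 3.86 in the 6 control cows with counts of miR-155 and between 0 and 4.12 in the 7 inulin cows. Control cow 5 had 405 counts of miR-21-5p to 105 of miR-155, a ratio of 3.86, and control cow 6 had 15 to 4, a ratio of 3.75. Inulin cow 2 had the highest ratio, 33 counts to 8. In contrast inulin cow 5 had 1 count of miR-21-5p to 20 of miR-155 and 27 of miR-223, a ratio of 0.05 to miR-155. Among cows with both, the ratio of miR-21-5p to miR-223 was between 0.0370 in inulin cow 5 and 2.29 in control cow 3. These ratios were chosen after the counts were seen and were not tested.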
